A study of Mus musculus with 24 samples.

Results

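The 10 genes followed here make up the route by which a cell displays peptides on MHC class I molecules, and each was read as the row of the deposited count table that carries its symbol. They are 10 of the 55025 genes in that table. All 10 passed the filter on low counts that left 20174 genes to test. Class I molecules carry peptides from proteins made inside the cell to the surface, where CD8 T cells read them. Proteasomes cut the proteins, the TAP transporter pumps the peptides into the endoplasmic reticulum, tapasin helps to load them onto a heavy chain bound to beta-2 microglobulin, and NLRC5 drives transcription of many genes of the route. T cells themselves use this route, and interferon gamma is its best known inducer.

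The question put to these genes is whether LCL161 changes their RNA in cells sorted for CD8 or CD4 from tumor-bearing mice, and where. LCL161 mimics the protein SMAC and removes the ubiquitin ligases cIAP1 and cIAP2. Every animal was TCRα-/- (the gene of the T cell receptor alpha chain is disrupted) and carried M8 pancreatic tumor organoids placed in the pancreas; no wild-type or tumor-free group was analysed here. LCL161 was gavaged at 75 mg/kg every 3 days from day 4, for 3 doses, or vehicle was given, and tissue was taken on day 12. Cells sorted as CD45+CD8+ or CD45+CD4+ came from tumor and from spleen, which gives 8 groups of 3 libraries: tumor CD8, tumor CD4, spleen CD8 and spleen CD4, each from LCL161 and from vehicle mice. The labels state neither the strain, sex and age of the mice nor where the M8 organoids came from. They are also silent on whether replicates came from different animals, so the p-values reflect only how these libraries spread, which may be technical.

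Library totals ran between 15455728 and 25145426 counts, of which the 10 genes took 1.6% to 2.9%. Levels below are in CPM, counts scaled to a common library size with TMM factors, and errors after ± are SD over 3 libraries unless called SE. For the mean of the 4 populations, CPM values average the group means and log2 values average the differences within populations, so they need not match. Cd8a ranged between 564 and 1158 CPM in CD8 libraries and between 0.0469 and 3.97 CPM in CD4 libraries, and Cd4 between 7.06 and 31.7 CPM in CD8 libraries and between 687 and 1429 CPM in CD4 libraries. Cd3e was present in all groups, at 514 to 1566 CPM. RNA of other cells was present too. The 10 markers of conventional dendritic cells summed to 670 to 1059 CPM in spleen CD8 LCL161 libraries and 2278 to 2462 CPM in spleen CD8 vehicle libraries, and the 12 markers of monocytes and macrophages to 779 to 1560 CPM in tumor CD4 LCL161 and 2572 to 6410 CPM in tumor CD4 vehicle libraries, with no marker of either list at 0 in all 3 libraries of a group. In such bulk samples fewer cells of a type and less RNA per cell cannot be told apart.

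Per kilobase of exon, with all annotated exons of a gene merged, the genes spread over more than 2 orders of magnitude. Merged exons can be longer than the transcripts in use (3660 bases for Psmb9, 3381 for Psmb8 and 860 for B2m). The order of genes with close values is therefore uncertain. B2m, the light chain shared by all class I molecules, averaged 7347 CPM per kilobase over the 8 groups, followed by the heavy chains H2-D1 at 2139 and H2-K1 at 1740. Tapbp (tapasin) stood at 256, the immunoproteasome gene Psmb8 at 231, Psmb10 at 152, the transporter genes Tap2 and Tap1 at 107 and 103, and Psmb9 at 96.8 CPM per kilobase. Nlrc5 was lowest, at 16.7 CPM per kilobase. On the CPM scale, the highest group mean exceeded the lowest by 1.21-fold for Tapbp, the steadiest gene, and by 2.89-fold for Nlrc5, the most variable, with the other 8 genes between 1.29-fold (H2-D1) and 1.77-fold (B2m). Between single libraries the ratio of highest to lowest was 5.06 for Nlrc5 and 1.48 for Tapbp.

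In GRCm38 (GENCODE M21 annotation) 7 of the 10 genes lie on chromosome 17, in and beside the MHC. These are Tapbp (33915899 to 33929292, plus strand), H2-K1 (33996017 to 34000347, minus), Psmb9 (34181987 to 34187764, minus), Tap1 (34187553 to 34197225, plus), Psmb8 (34197721 to 34201454, plus), Tap2 (34203527 to 34216321, plus) and H2-D1 (35262730 to 35267499, plus). B2m lies on chromosome 2 (122147686 to 122153083, plus), Nlrc5 on chromosome 8 (94434356 to 94527272, plus) and Psmb10 also on chromosome 8 (105935735 to 105938444, minus). Tap1 and Psmb9 run away from each other and share 212 exonic bases on opposite strands, so reads there cannot be assigned without strand, and no source used here states the strand. Tap2 and Psmb8 overlap the antisense gene Gm20496, and Tapbp overlaps Zbtb22 on its own strand. Of the 50-base words in their transcripts, 9.63% for H2-K1 and 12.8% for H2-D1 also occur in other genes, chiefly other class I heavy chains. Their counts are thus uncertain to an extent that was not measured. B2m, Psmb9, Psmb10 and Nlrc5 share none.

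The stretches just upstream of 5 transcription starts annotated by RefSeq are shown because LCL161 acts on NF-kB, and the upstream region of a classical class I gene is known to hold sites for NF-kB, IRF and CREB family proteins. They come from RefSeq (GRCm38.p6), whose table held a window for 8 of the 10 genes (not Tap2 or Nlrc5). They run 5′ to 3′ on the strand of the gene, over the 250 bases before the start of H2-K1 (chr17:34000348-34000597, minus), H2-D1 (chr17:35262844-35263093, plus) and B2m (chr2:122147437-122147686, plus), and over the 225 bases between the divergent starts of Psmb9 and Tap1 (chr17:34187331-34187555, plus, the strand of Tap1). The RefSeq start of H2-K1 (34000347) is also its GENCODE start, and those of B2m (122147687) and Tap1 (34187556) lie within a few bases of theirs. For H2-D1 and Psmb9 the GENCODE spans given above reach further upstream. The H2-D1 window therefore lies inside the GENCODE span of H2-D1 and the shared window inside that of Psmb9. Capitals mark matches on either strand to an NF-kB-like motif (GGG, 2 free bases, TT, 1 free base, CC), AANNGAAA (IRF core), TGACG (CRE-like) or CCAAT.
H2-K1: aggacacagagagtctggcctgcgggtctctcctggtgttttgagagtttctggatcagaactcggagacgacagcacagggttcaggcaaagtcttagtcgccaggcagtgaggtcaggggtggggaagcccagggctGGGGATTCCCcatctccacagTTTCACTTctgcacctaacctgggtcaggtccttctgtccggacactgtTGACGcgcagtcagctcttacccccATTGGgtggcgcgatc
H2-D1: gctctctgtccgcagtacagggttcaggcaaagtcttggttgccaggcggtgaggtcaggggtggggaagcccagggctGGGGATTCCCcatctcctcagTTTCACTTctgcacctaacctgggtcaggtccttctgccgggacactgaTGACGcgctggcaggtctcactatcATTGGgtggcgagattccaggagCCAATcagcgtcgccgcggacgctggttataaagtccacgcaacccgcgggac
B2m: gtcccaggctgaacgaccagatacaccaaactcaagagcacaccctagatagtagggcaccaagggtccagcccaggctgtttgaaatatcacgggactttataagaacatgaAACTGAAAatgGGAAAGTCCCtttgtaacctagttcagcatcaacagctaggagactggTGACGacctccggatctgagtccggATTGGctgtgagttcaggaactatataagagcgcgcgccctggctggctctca
Tap1 and Psmb9: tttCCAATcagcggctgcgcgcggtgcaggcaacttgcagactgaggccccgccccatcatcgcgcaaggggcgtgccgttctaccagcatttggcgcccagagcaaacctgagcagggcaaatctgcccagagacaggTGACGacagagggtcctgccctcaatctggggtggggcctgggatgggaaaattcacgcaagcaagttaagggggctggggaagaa

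The H2-K1 and H2-D1 sequences align with 87.9% identity over 190 bases, and hold the NF-kB-like match, then the IRF core, the CRE-like motif and a CCAAT box on the minus strand in the same order. In H2-K1 the NF-kB-like match lies 111 to 102 bases before the start and in H2-D1 171 to 162 bases before its own annotated start. B2m holds the same 4 motifs, with the IRF core (137 to 130 bases before the start) ahead of the NF-kB-like match (126 to 117). Of the 8 windows, which run 250 bases before to 50 after the start, these 3 held the NF-kB-like motif, against 4.79% of 32851 windows of all genes, and the same 3 held the IRF core, against 23.9%. The CRE-like motif was in 5 of 8, against 20.8%, CCAAT in 6, against 37.4%, and the GAS motif TTCNNNGAA in 1, that of Psmb8, against 8.3%. Of 2 windows of constitutive catalytic proteasome genes, 2 held the CRE-like motif and 1 the IRF core. The NF-kB-like, GAS and CCAAT motifs were in 0 of these 2. The windows of Tap1 and Psmb9 overlap and are not independent. Those of H2-K1 and H2-D1 resemble each other in sequence and are not independent either. A match to letters is a description and does not show binding.

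**Figure D1:**
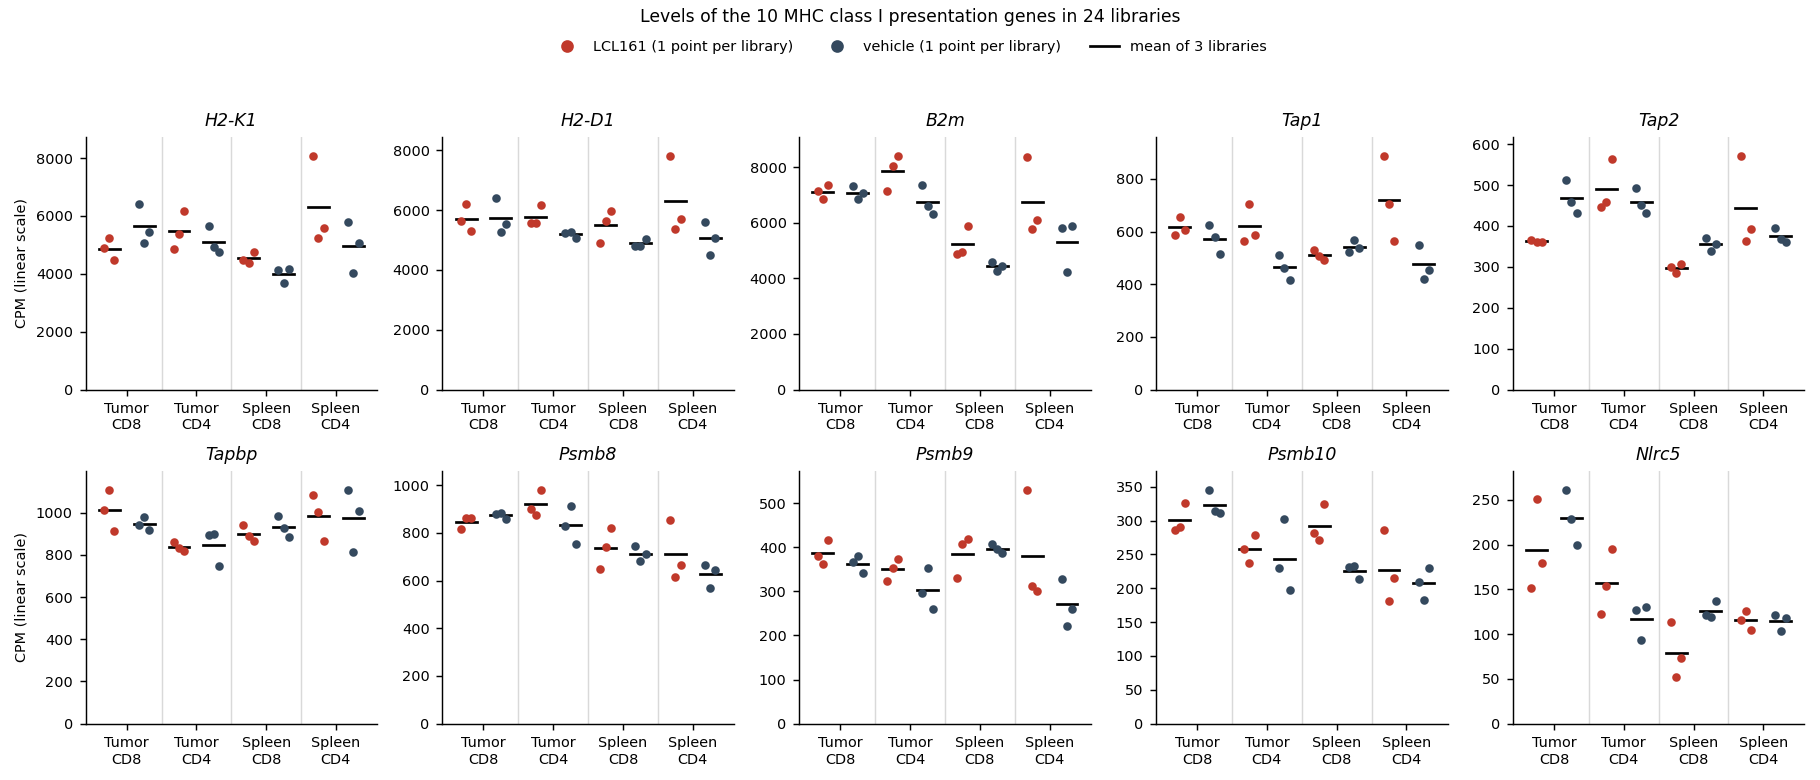
Levels of the 10 genes in CPM (linear axes from 0) in each of the 24 libraries, 1 point per library with the mean of 3 as a bar, for 4 sorted populations with LCL161 left of vehicle. Most groups overlap; Nlrc5 spreads most, between 51.6 and 261 CPM, and 1 spleen CD4 LCL161 library stands highest for H2-K1, H2-D1, Tap1, Tap2 and Psmb9.

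A pair of libraries stood apart across the genes. Spleen CD4 LCL161 replicate 1 was the highest of all 24 libraries for H2-K1 (8085 CPM), H2-D1 (7820 CPM), Tap1 (889 CPM), Tap2 (572 CPM) and Psmb9 (530.3 CPM). Spleen CD4 vehicle replicate 2 was the lowest for H2-D1 (4490 CPM), B2m (4215 CPM), Psmb8 (569.9 CPM) and Psmb9 (222 CPM). As the mean of the 10 genes' z-scores, replicate 1 of spleen CD4 LCL161 reached 1.67 and replicate 2 of spleen CD4 vehicle -1.52, while the other 22 libraries lay between -0.76 and 1.03. Both sit in the same comparison and pull it the same way, so the LCL161 results for spleen CD4 and for the mean of the populations are also given without them, one at a time or together, as are other calls that they change. Replicate 1 of spleen CD4 LCL161 also had the highest sum of 10 T cell markers in its comparison (8105 CPM, against 5465 and 5261 CPM in the other LCL161 libraries and 5300, 5785 and 4471 CPM with vehicle). Vehicle replicate 2, too, had the highest T cell sum of its group. It had the lowest sums of its group for conventional dendritic cell (175 CPM), plasmacytoid dendritic cell (445 CPM) and monocyte and macrophage markers (210.4 CPM). LCL161 replicate 1 was likewise the lowest of its group for these lists (233.4, 237.5 and 276.5 CPM). The 2 libraries thus shared these marker traits while their z-scores lay at opposite ends. Their part in the values was not tested.

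With LCL161, no population on its own had a member past the threshold. As the mean over all 4 populations Tap1 and B2m were higher by a small amount, and the B2m call held in only 10 of 30 alternatives. By edgeR's quasi-likelihood test, with Benjamini-Hochberg adjustment over all 20174 genes and a threshold of 0.05, 0 of 10 genes were called in tumor CD8, where 0.248% of all genes tested were. Likewise 0 of 10 were called in tumor CD4 (0.322% of all genes), 0 of 10 in spleen CD8 (8.28%) and 0 of 10 in spleen CD4 (0.431%). At an unadjusted p under 0.05 there were 1, 1, 2 and 5 genes in that order of populations, and DESeq2 called 0, 0, 1 and 1. The median log2 fold change of the 10 genes was -0.03 in tumor CD8, 0.15 in tumor CD4, 0.00 in spleen CD8 and 0.28 in spleen CD4, beside medians over all genes tested of 0.00, -0.01, 0.07 and 0.02. In spleen CD4 all 10 estimates were positive with all libraries in, 8 without LCL161 replicate 1 (median 0.08), 8 without vehicle replicate 2 (median 0.20) and 4 without both (median -0.002). Without both, Tap1 stood at 0.34 (adjusted p = 0.32) and the other 9 genes between -0.18 and 0.06. LCL161 and vehicle libraries did not overlap for 1 of 10 genes in tumor CD8 (23.5% of all genes), 2 in tumor CD4 (15.2%), 5 in spleen CD8 (38.9%) and 1 in spleen CD4 (14.6%). In the mean of the 4 populations 2 of 10 genes were higher and 0 lower, where 18.7% of all genes were called and 9.73% were higher. The share called in either direction was near that of all genes. The Tap1 and B2m estimates lay at percentiles 80.1 and 74.7 of all genes tested. The median of the 10 was 0.11 beside 0.01 over all genes. That median was 0.05 without LCL161 replicate 1 of spleen CD4, 0.08 without vehicle replicate 2 and 0.03 without both.

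**Figure D2:**
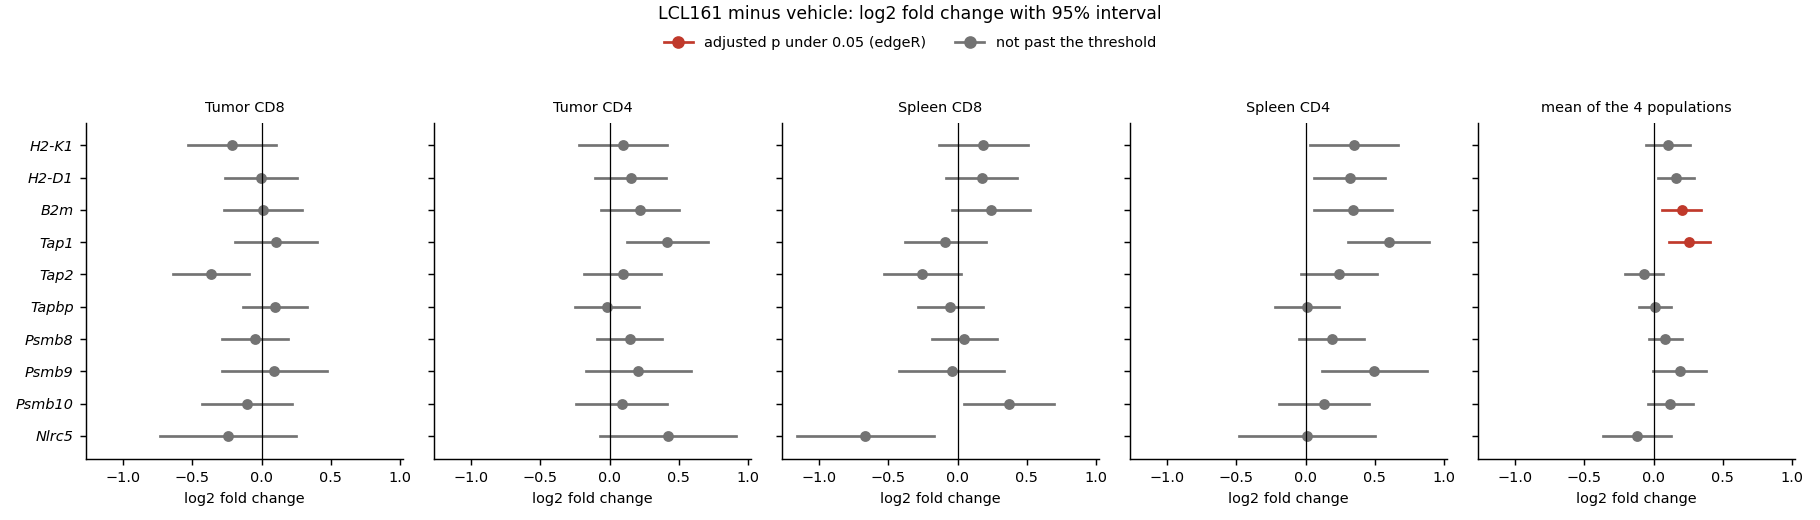
Log2 fold change (LCL161 minus vehicle) of the 10 genes with its 95% interval in each of the 4 populations and as their mean; red marks an adjusted p under 0.05. No interval is red in a single population, and in the mean Tap1 (0.26) and B2m (0.20) are.

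B2m, the light chain, was measured most deeply. It had 7133, 6870 and 7348 CPM in tumor CD8 LCL161 libraries, against 7334, 6842 and 7067 CPM in tumor CD8 vehicle libraries. Tumor CD4 libraries had 7154, 8026 and 8414 CPM with LCL161, against 7373, 6612 and 6304 CPM with vehicle. Both tumor populations overlapped between treatments. In spleen CD8 it had 4894, 4945 and 5883 CPM with LCL161, against 4575, 4256 and 4462 CPM with vehicle. Here the 3 LCL161 libraries were all above the 3 vehicle libraries, yet the difference did not pass (log2 fold change 0.24, SE 0.13, adjusted p = 0.27). In spleen CD4 it had 8362, 5775 and 6086 CPM with LCL161, against 5822, 4215 and 5896 CPM with vehicle, which overlap (0.34, adjusted p = 0.23). The B2m estimate there was 0.16 without LCL161 replicate 1, 0.19 without vehicle replicate 2 and 0.02 without both. Averaged over the 4 populations B2m was 1.15-fold higher with LCL161 (log2 0.20, SE 0.07, adjusted p = 0.041). This call did not hold without spleen CD4 LCL161 replicate 1 (log2 0.15, adjusted p = 0.068), without spleen CD4 vehicle replicate 2 (0.16, adjusted p = 0.061), without both (0.12, adjusted p = 0.065) or without any 1 of 14 other libraries, nor with RLE scaling (adjusted p = 0.051), no scaling (0.063) or no filter on low counts (0.085). Over all alternatives the adjusted p ranged between 0.027 and 0.09. Markers of other cells moved in the same mean, with 10 of 12 monocyte and macrophage markers and 5 of 10 conventional dendritic cell markers lower with LCL161, and their part in the B2m and Tap1 values was not tested.

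The classical heavy chains H2-K1 and H2-D1, which bind the peptide, did not pass in any population with all libraries in. H2-K1 had 4888, 5242 and 4468 CPM in tumor CD8 LCL161 libraries, against 6411, 5070 and 5446 CPM in tumor CD8 vehicle libraries (log2 -0.21, SE 0.15, adjusted p = 0.67). In spleen CD8 it had 4486, 4391 and 4755 CPM with LCL161, against 4136, 3674 and 4174 CPM with vehicle (0.19, SE 0.15, adjusted p = 0.47). The LCL161 libraries thus tended lower in tumor CD8, with overlap, and higher in spleen CD8, with none, and the difference between those effects did not pass either (log2 -0.40, 95% interval -0.85 to 0.05, adjusted p = 0.61). H2-D1 averaged 5710 ± 451 CPM with LCL161 and 5738 ± 592 CPM with vehicle in tumor CD8, and 5764 ± 353 CPM with LCL161 and 5190 ± 101 CPM with vehicle in tumor CD4. In tumor CD4 the H2-D1 libraries did not overlap. In spleen CD4 the log2 differences were 0.35 for H2-K1 (adjusted p = 0.28) and 0.32 for H2-D1 (adjusted p = 0.23), and 0.13 each without the high replicate 1, with adjusted p of 0.85 and 0.76 then. Without vehicle replicate 2 they were 0.21 and 0.23, and without both libraries -0.002 and 0.05. Averaged over the populations H2-D1 missed the threshold (0.16, SE 0.06, adjusted p = 0.080) except without spleen CD4 LCL161 replicate 2 (0.17, adjusted p = 0.047), and H2-K1 stood at 0.10 (adjusted p = 0.37).

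Tap1, a subunit of the peptide transporter, had the highest estimate of the 10 genes in spleen CD4. It had 889, 705 and 565 CPM in spleen CD4 LCL161 libraries, against 550.4, 421 and 455 CPM in spleen CD4 vehicle libraries (log2 0.60, SE 0.14, adjusted p = 0.067). Tumor CD4 libraries had 566, 706 and 589 CPM with LCL161, against 513, 463 and 417 CPM with vehicle (0.42, SE 0.14, adjusted p = 0.17). In both CD4 populations every LCL161 library lay above every vehicle library. The spleen CD4 difference was called by DESeq2 (0.58, adjusted p = 0.0083) and, in edgeR, without LCL161 replicate 3 (0.74, adjusted p = 0.014), and stood at 0.41 without LCL161 replicate 1 (adjusted p = 0.29), 0.51 without vehicle replicate 2 (adjusted p = 0.10) and 0.34 without both (adjusted p = 0.32). Neutrophil markers summed to 202, 808 and 1934 CPM in spleen CD4 LCL161 libraries, against 70.1, 41.0 and 507 CPM in spleen CD4 vehicle libraries, with 0 of 10 called. Plasmacytoid dendritic cell markers summed to 238, 480 and 702 CPM in spleen CD4 LCL161 libraries, against 2077, 445 and 1430 CPM in spleen CD4 vehicle libraries, with 6 of 6 estimates negative and 0 called, and of 12 monocyte and macrophage markers 10 had negative estimates and 1 was called lower. The part of these cells was not tested. In the CD8 populations Tap1 averaged 617 ± 34.7 CPM with LCL161 and 574 ± 54.8 CPM with vehicle in tumor CD8, and 509.6 ± 20.5 CPM with LCL161 and 543 ± 23.8 CPM with vehicle in spleen CD8. Over the 4 populations together Tap1 was on average 1.19-fold higher with LCL161 (log2 0.26, SE 0.07, adjusted p = 0.016). It passed under each of 30 alternatives, where the adjusted p ranged between 0.0049 and 0.041, among them without spleen CD4 LCL161 replicate 1 (log2 0.21, adjusted p = 0.028), vehicle replicate 2 (0.23, adjusted p = 0.031) or both (0.19, adjusted p = 0.041). The effect in spleen CD8 minus that in spleen CD4 was -0.69 (95% interval -1.10 to -0.27, adjusted p = 0.13 with edgeR), which DESeq2 called (-0.71, adjusted p = 0.032), as did edgeR without spleen CD4 LCL161 replicate 3 (-0.85, adjusted p = 0.035). It was -0.53 without LCL161 replicate 1 of spleen CD4, -0.63 without vehicle replicate 2 and -0.45 without both.

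Tap2, the partner subunit, had lower estimates than Tap1 in every population. It had 365, 362 and 361 CPM in tumor CD8 LCL161 libraries, against 513, 458 and 432 CPM in tumor CD8 vehicle libraries (log2 -0.37, SE 0.13, adjusted p = 0.31). In spleen CD8 it had 300.2, 286 and 307 CPM with LCL161, against 369, 339 and 356 CPM with vehicle (-0.25, SE 0.13, adjusted p = 0.24). In both CD8 populations the LCL161 libraries all lay below the vehicle libraries, and neither difference passed. The mean over the 4 populations put Tap2 at -0.07 (95% interval -0.21 to 0.07, adjusted p = 0.48). Tapbp, whose product tethers the heavy chain to the transporter, had log2 differences between -0.05 and 0.10 in the 4 populations, and its mean over them was 0.01 (95% interval -0.11 to 0.13, adjusted p = 0.96).

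Of the immunoproteasome subunits, which replace the constitutive catalytic subunits and change which peptides are cut, none passed with LCL161 in any population. Psmb8 averaged 846 ± 24.9 CPM with LCL161 and 874 ± 13.3 CPM with vehicle in tumor CD8, and 919 ± 54.7 CPM with LCL161 and 832 ± 81.1 CPM with vehicle in tumor CD4. Psmb9 had 530.3, 311 and 301 CPM in spleen CD4 LCL161 libraries, against 329, 222 and 260.0 CPM in spleen CD4 vehicle libraries (log2 0.50, SE 0.18, adjusted p = 0.21), and the log2 difference was 0.18 without the high replicate 1, 0.36 without vehicle replicate 2 and 0.06 without both. Psmb10 had 282, 271 and 324 CPM in spleen CD8 LCL161 libraries, against 232, 233 and 213 CPM in spleen CD8 vehicle libraries (0.37, SE 0.16, adjusted p = 0.14), with no overlap. The mean over the populations was 0.08 for Psmb8, 0.19 for Psmb9 and 0.12 for Psmb10, with adjusted p of 0.33, 0.16 and 0.30.

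In the mean of the 4 populations, 9 of 11 other core subunits were higher with LCL161 and 0 lower, with a median log2 fold change of 0.23, where 9.73% of all genes were higher. The same 9 were called without either or both of the spleen CD4 libraries that stand apart (medians 0.21 to 0.24). In that mean 10 of 12 monocyte and macrophage markers and 5 of 10 conventional dendritic cell markers were lower, and of 10 T cell markers 4 were higher and 2 lower; their part in the proteasome values was not tested. Psma6 (255 CPM with LCL161 and 200.5 CPM with vehicle, log2 0.35, adjusted p = 0.00044), Psma2 (0.32, adjusted p = 0.0004) and Psma4 (0.28, adjusted p = 0.0018) encode structural alpha ring subunits. Of the constitutive catalytic subunits Psmb6 (0.24, adjusted p = 0.031) and Psmb7 (0.21, adjusted p = 0.011) were higher, Psmb6 not without spleen CD4 LCL161 replicate 1 (0.20, adjusted p = 0.059), and Psmb5 was not called; 54.1% of the 50-base words of Psmb5 also occur in other genes, among them Psmb5-ps. Among 9 genes of activators and assembly only Psmg1 (0.26, adjusted p = 0.037), which encodes a chaperone of core assembly, passed, and it did not without either or both of those libraries (0.22 to 0.25, adjusted p 0.051 to 0.081). The activator genes Psme1 and Psme2, which interferon gamma also induces, did not pass.

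**Figure D3:**
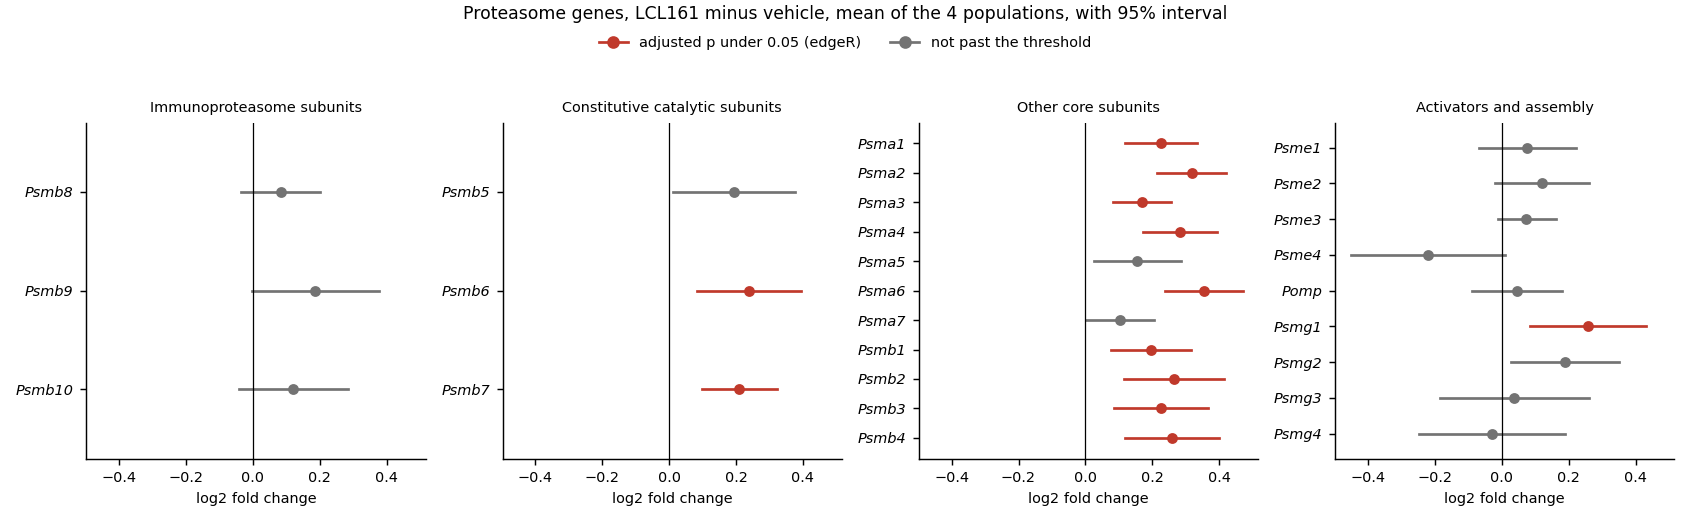
Log2 fold change (LCL161 minus vehicle, mean of the 4 populations) with its 95% interval for immunoproteasome, constitutive catalytic and other core subunits and for activators and assembly genes; red marks an adjusted p under 0.05. Among the other core subunits 9 of 11 are red; of the 3 immunoproteasome subunits none is.

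Exchange of subunits was read as the ratio of each immunoproteasome gene to the constitutive gene it replaces. Psmb8 over Psmb5 was 10.1, 12.1 and 11.0 in tumor CD8 LCL161 libraries, against 12.7, 12.6 and 12.7 in tumor CD8 vehicle libraries, and 7.53, 8.02 and 8.07 in spleen CD8 LCL161 libraries, against 8.65, 9.47 and 8.74 in spleen CD8 vehicle libraries. Both CD8 populations had lower ratios in all LCL161 libraries, and both CD4 populations overlapped. Over all 12 libraries a treatment, with labels permuted within populations (exact two-sided permutation test, 160000 arrangements), the log2 ratio differed by -0.11 for Psmb8 over Psmb5 (p = 0.12, adjusted over the 3 ratios 0.35). It differed by -0.06 for Psmb9 over Psmb6 (p = 0.47 in the same exact permutation test, adjusted 0.47) and by -0.09 for Psmb10 over Psmb7 (p = 0.36, adjusted 0.47). Psmb9 over Psmb6 was 1.81, 2.01 and 1.83 in spleen CD8 LCL161 libraries, against 2.34, 2.68 and 2.27 in spleen CD8 vehicle libraries, with no overlap there (log2 -0.37) and overlap in the other populations. Psmb10 over Psmb7 lay higher with LCL161 in spleen CD8 (4.14 ± 0.60 with LCL161 and 3.19 ± 0.16 with vehicle) and lower in tumor CD8 (3.58 ± 0.17 with LCL161 and 4.53 ± 0.62 with vehicle). Within 1 population 3 libraries against 3 cannot give an exact p below 0.1.

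Nlrc5, the class I transactivator, had the widest range of differences among the members. It had 151, 251 and 180 CPM in tumor CD8 LCL161 libraries, against 261, 228 and 200.1 CPM in tumor CD8 vehicle libraries (log2 -0.25, SE 0.23, adjusted p = 0.78). In spleen CD8 it had 113, 51.6 and 73.7 CPM with LCL161, against 122, 119 and 138 CPM with vehicle (-0.67, SE 0.24, adjusted p = 0.085). The 3 spleen CD8 LCL161 libraries all lay below the vehicle libraries, but replicate 1 only just. DESeq2 called this difference (-0.71, adjusted p = 0.032), and so did edgeR without LCL161 replicate 1 (-1.04, adjusted p = 0.009). In tumor CD4 Nlrc5 had 123, 153 and 195 CPM with LCL161, against 128, 93.1 and 131 CPM with vehicle (0.42, SE 0.24, adjusted p = 0.43), which overlap. In spleen CD4 it had 116, 126 and 104 CPM with LCL161, against 122, 103 and 118 CPM with vehicle, and the mean over the 4 populations did not pass (-0.12, 95% interval -0.37 to 0.13, adjusted p = 0.51).

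Regulators around Nlrc5 moved in different directions with LCL161. Relb and Nfkb2, the partners of the alternative NF-kB pathway, were higher as the mean of the 4 populations by 1.03 (adjusted p = 3e-06) and 1.20 (adjusted p = 8.5e-06) on the log2 scale, and Relb passed in each of the 4 populations (0.64 to 1.25). Without spleen CD4 LCL161 replicate 1, or without it and vehicle replicate 2, none of 16 transcription factor genes on the list passed in spleen CD4, where Relb and Nfkb2 had, while in the mean the lowest values were 0.92 for Relb (adjusted p = 2.5e-06) and 1.11 for Nfkb2 (adjusted p = 3.4e-05). Ifng was also higher in that mean (116 CPM with LCL161 and 63.6 CPM with vehicle, log2 1.20, SE 0.32, adjusted p = 0.014), and stood between 1.24 and 1.30 without either or both of the 2 spleen CD4 libraries. Its libraries overlapped between treatments in tumor CD8 (98.9, 51.6 and 61.3 CPM with LCL161, against 83, 63.1 and 46.8 CPM with vehicle). They also overlapped in tumor CD4 (171, 367 and 155 CPM with LCL161, against 290, 64.3 and 67.5 CPM with vehicle). The same held in spleen CD4 (65.8, 32.1 and 197 CPM with LCL161, against 36.4, 49.6 and 32.4 CPM with vehicle). Ciita, the transactivator of class II genes and a relative of Nlrc5, was lower in that mean (44.8 CPM with LCL161 and 102 CPM with vehicle, -0.94, SE 0.20, adjusted p = 0.0045). Ciita libraries overlapped between treatments in every population except spleen CD8, whose values follow below. Of the 16 listed transcription factor genes, 4 were higher in that mean (Relb, Nfkb2, Rela and Nfyc) and 3 lower (Irf8, Stat2 and Ciita). Of 13 genes of the interferon gamma path, 4 were higher (Ifng, Cxcl10, Socs1 and Gbp5) and Ifngr2, a chain of its receptor, was lower. Gbp5 did not pass without spleen CD4 LCL161 replicate 1 (0.40, adjusted p = 0.057) or without both libraries, and Ifngr1, the other receptor chain, passed as higher without either (0.47 and 0.50) or both (0.57, adjusted p = 0.0048). Irf1, a factor through which interferon gamma acts on class I promoters, did not pass in the mean (0.21, adjusted p = 0.095).

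In spleen CD8, Ifng had 64.4, 29.2 and 97.6 CPM with LCL161, against 6.03, 14.1 and 10.8 CPM with vehicle, and the groups did not overlap (log2 2.63, SE 0.67, adjusted p = 0.023). Irf1 had 317, 289 and 353 CPM with LCL161, against 240.4, 209 and 223 CPM with vehicle, again without overlap and short of the threshold (0.51, SE 0.17, adjusted p = 0.077). Ciita went the other way, at 68.4, 127 and 68.0 CPM with LCL161, against 264, 291 and 283 CPM with vehicle (-1.67, SE 0.41, adjusted p = 0.019). Beside these stand the conventional dendritic cell markers, of which 4 of 10 were lower and 0 higher with LCL161 in spleen CD8, with the sums given above. The 9 class II genes summed to 12620 ± 6446 CPM with LCL161 and 29610 ± 1598 CPM with vehicle in spleen CD8. Whether a changed share of such cells bears on Nlrc5 or any other member there was not tested.

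**Figure D4:**
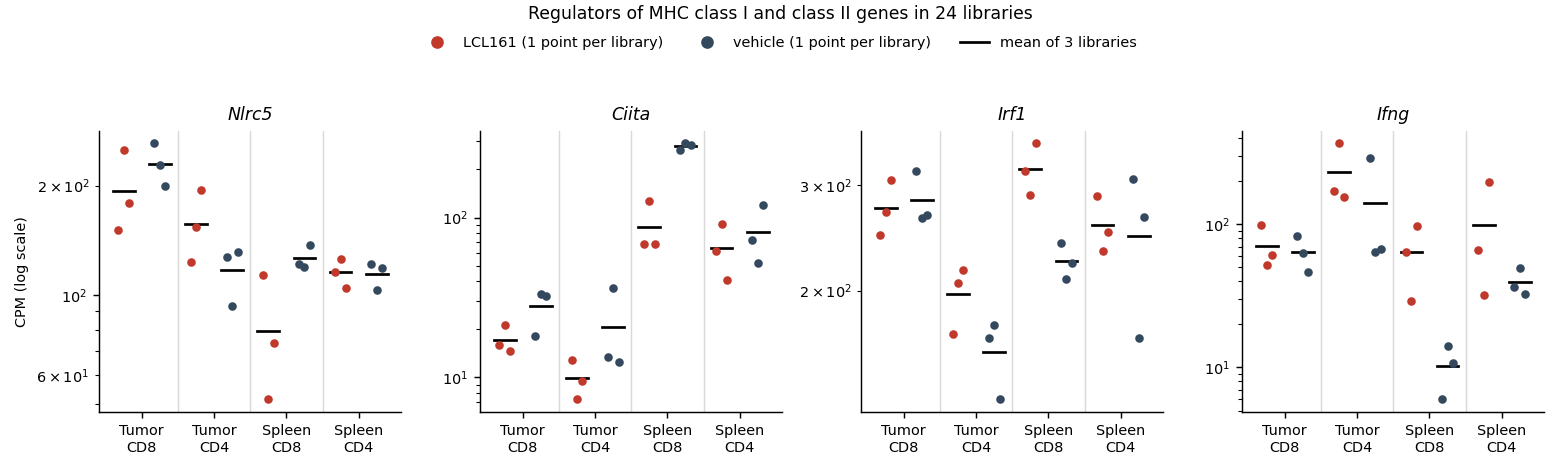
Levels of Nlrc5, Ciita, Irf1 and Ifng in CPM (log axes) in each of 24 libraries, with the mean of 3 as a bar, for 4 sorted populations with LCL161 left of vehicle. In spleen CD8 Nlrc5 and Ciita lie lower and Irf1 and Ifng higher in all 3 LCL161 libraries.

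Whether the response depended on tissue or on population was tested as the difference between effects. No member passed in edgeR for tumor minus spleen in CD8 cells (0.0248% of all genes called), tumor minus spleen in CD4 cells (0.00991%), CD8 minus CD4 cells in the tumor (0% of all genes) or CD8 minus CD4 cells in the spleen (0.292%). At an unadjusted p under 0.05 there were 1, 0, 1 and 3 of 10 in that order, and DESeq2 called 0, 0, 0 and 1, the last being Tap1. For Nlrc5 the interval in spleen CD8 minus CD4 reached from -1.38 to 0.02, so a miss of the threshold does not show that the effects are alike.

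Other class I genes, mostly nonclassical heavy chains, were read beside the classical ones. Of 16 listed, 15 could be tested, and in the mean of the 4 populations 3 were higher with LCL161 and 1 lower, with a median log2 fold change of 0.16. H2-T22 was higher (225 CPM with LCL161 and 183 CPM with vehicle, log2 0.32, adjusted p = 0.010), as were H2-Q7 (1492 CPM with LCL161 and 1231 CPM with vehicle, 0.30, adjusted p = 0.026) and H2-Q2 (20.5 CPM with LCL161 and 10.5 CPM with vehicle, 0.47, adjusted p = 0.027), the last not without both spleen CD4 libraries (0.43, adjusted p = 0.056). The CPM means of H2-Q2 lie further apart than its log2 value, which averages the differences within populations. Cd1d1, which presents lipids, was lower (-0.40, SE 0.10, adjusted p = 0.014). These genes resemble each other and the classical chains in sequence, so part of their reads may be shared. None of 7 genes of peptide loading and trimming (among them Calr, Canx, Pdia3 and Erap1) was called by edgeR in that mean, and 0 had an unadjusted p under 0.05; without both spleen CD4 libraries Tapbpl, a relative of tapasin, was called lower (-0.28, adjusted p = 0.017). Of the class II genes 6 of 9 were lower and 0 higher, with a median of -0.80, among them H2-Eb1 (603 CPM with LCL161 and 1236 CPM with vehicle, -0.87, adjusted p = 0.018) and Cd74, the invariant chain (-0.83, adjusted p = 0.011). The class II sum was 12620 CPM with LCL161 and 29610 CPM with vehicle in spleen CD8, and 1520 and 4575 CPM in tumor CD4. It was 6900 and 8681 CPM in spleen CD4, and 3099 and 3275 CPM in tumor CD8. In spleen CD8 conventional dendritic cell markers summed to 815 CPM with LCL161 and 2361 CPM with vehicle. Monocyte and macrophage markers there summed to 1224 and 1086 CPM. Of 12 monocyte and macrophage markers 10 were lower in the mean of the 4 populations. The part of these cells in the class I and class II values was not tested.

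More members were called between tumor and spleen than between treatments, and most of these calls were in CD8 cells. In vehicle mice 5 of 10 genes were higher in tumor than in spleen CD8 cells and 0 lower (14.8% of all genes called, 7.95% higher), and the median log2 fold change was 0.35 beside 0.03 over all genes. In LCL161 mice 2 of 10 were higher and 0 lower in tumor CD8 cells (8.77% of all genes called, 4.92% higher), with a median of 0.18 beside 0.00. In CD4 cells 1 of 10 was higher in tumor with LCL161 (21.3% of all genes called, 10.4% higher) and 1 of 10 with vehicle (16.4% called, 9.61% higher), Psmb8 both times, a share near that of all genes. Tumor and spleen libraries did not overlap for 4 of 10 genes in CD8 LCL161 cells (31.2% of all genes), 8 in CD8 vehicle (47.8%), 2 in CD4 LCL161 (32.7%) and 3 in CD4 vehicle (31.1%). The tumor CD8 and spleen CD8 libraries of 1 treatment serve in both the tissue and the LCL161 comparisons, so these are not independent.

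**Figure D5:**
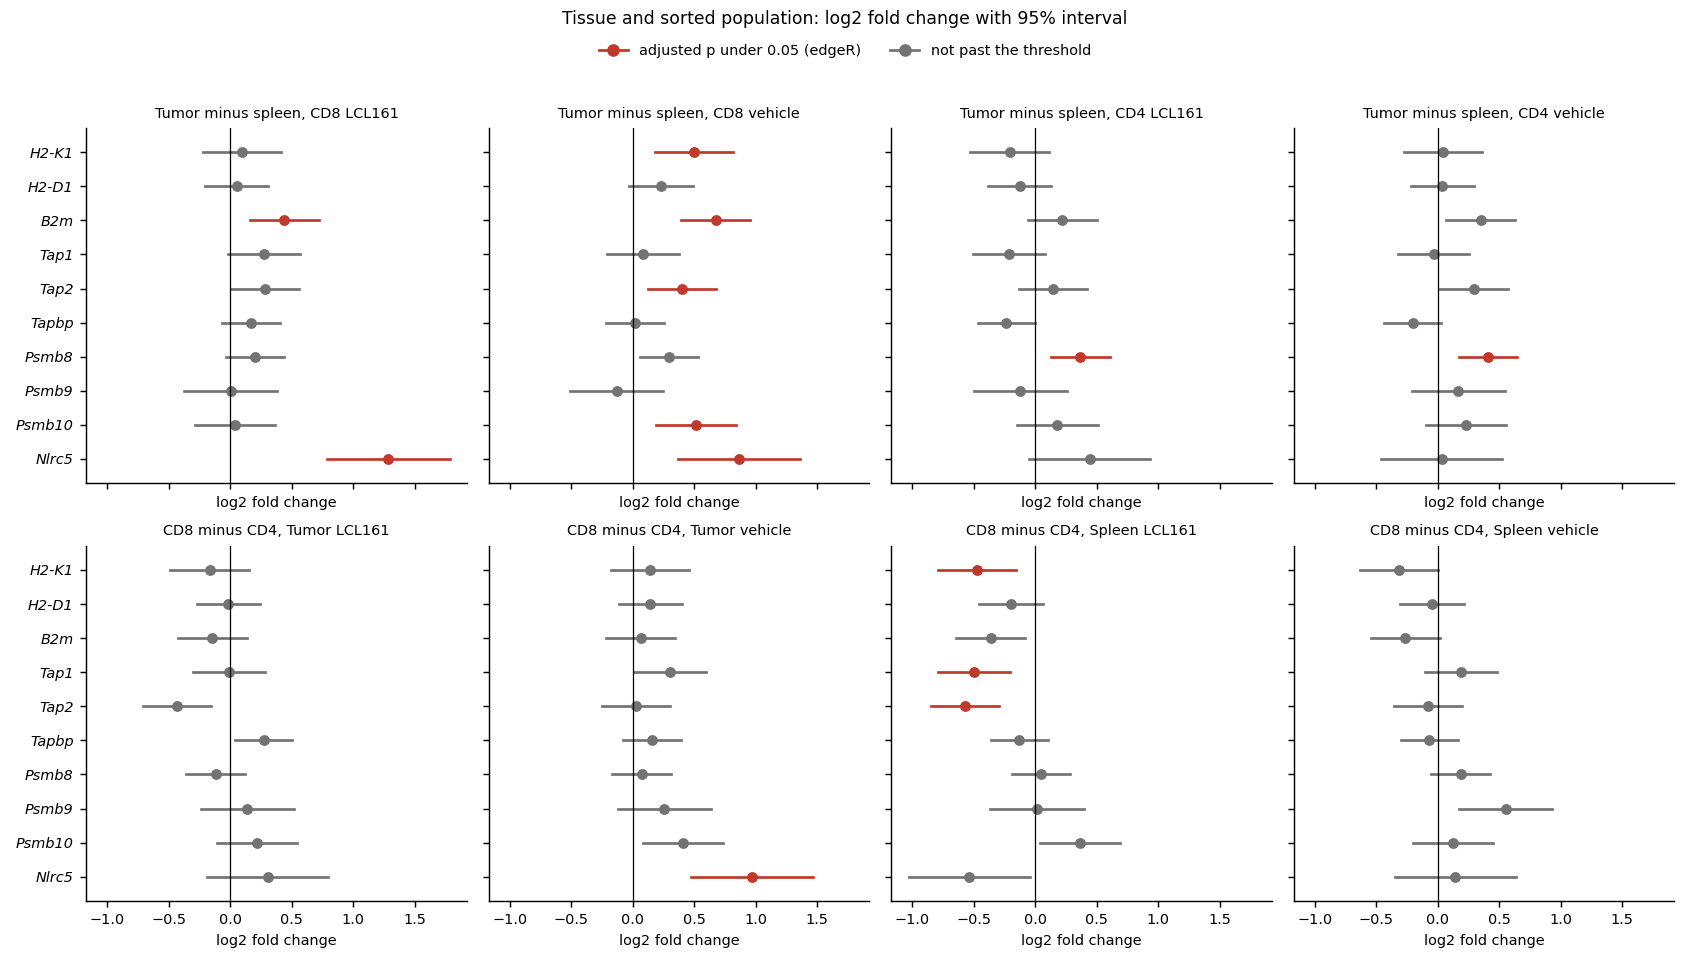
Log2 fold change of the 10 genes with its 95% interval for tumor minus spleen (upper row) and CD8 minus CD4 (lower row), in each setting; red marks an adjusted p under 0.05. Tumor minus spleen in CD8 vehicle cells has 5 red intervals, all to the right of 0, and CD8 minus CD4 in spleen LCL161 cells has 3, all to the left.

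In CD8 cells Nlrc5 had the largest tissue difference of the 10 genes. With LCL161 it had 151, 251 and 180 CPM in tumor CD8 libraries, against 113, 51.6 and 73.7 CPM in spleen CD8 libraries, and all tumor values were higher (2.44-fold, log2 1.29, SE 0.24, adjusted p = 0.0044). With vehicle it had 261, 228 and 200.1 CPM in tumor CD8, against 122, 119 and 138 CPM in spleen CD8, again without overlap (1.82-fold, log2 0.86, SE 0.24, adjusted p = 0.018). Replicate numbers pair the LCL161 tissues by the rule used here, and with that pairing and only those 6 libraries the Nlrc5 difference kept its size (1.31) and lost the call (adjusted p = 0.083). In vehicle cells the call was lost without tumor replicate 1 (0.75, adjusted p = 0.089), spleen replicate 1 (0.82, adjusted p = 0.073) or spleen replicate 2 (0.82, adjusted p = 0.073). In CD4 cells Nlrc5 did not pass, at 0.45 with LCL161 (adjusted p = 0.19) and 0.03 with vehicle (adjusted p = 0.94). Ciita in CD8 cells ran the other way, at 17.3 CPM in tumor and 87.8 CPM in spleen CD8 with LCL161 (-2.35, adjusted p = 0.004) and 27.9 CPM in tumor and 279 CPM in spleen CD8 with vehicle (-3.32, adjusted p = 9.3e-05).

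B2m followed the same direction. With vehicle it had 7334, 6842 and 7067 CPM in tumor CD8, against 4575, 4256 and 4462 CPM in spleen CD8 (1.60-fold, log2 0.68, SE 0.13, adjusted p = 0.0021), and it passed under all 12 alternatives. With LCL161 it had 7133, 6870 and 7348 CPM in tumor CD8, against 4894, 4945 and 5883 CPM in spleen CD8 (1.36-fold, log2 0.44, SE 0.13, adjusted p = 0.047). Neither comparison had overlapping libraries; the LCL161 call was lost without any of tumor replicates 1, 2 and 3 or spleen replicates 1 and 2, with log2 values of 0.40 to 0.47. The remaining calls in vehicle CD8 cells were H2-K1 (5642 ± 692 CPM in tumor and 3995 ± 279 CPM in spleen, log2 0.50, SE 0.15, adjusted p = 0.033), Tap2 (467 ± 41.3 CPM in tumor and 355 ± 15.4 CPM in spleen, 0.40, SE 0.13, adjusted p = 0.048) and Psmb10 (324 ± 19.0 CPM in tumor and 226 ± 11.1 CPM in spleen, 0.52, SE 0.16, adjusted p = 0.031). Each of these was lost without at least 5 of the 6 libraries in turn, where adjusted p reached 0.16, 0.20 and 0.12. Psmb9 and Tapbp did not pass, with log2 differences of -0.13 (95% interval -0.51 to 0.25) and 0.02 (-0.21 to 0.25) in vehicle CD8 cells.

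Psmb8 was the member called between tumor and spleen in CD4 cells. With LCL161 it had 902, 875 and 980.4 CPM in tumor CD4, against 854, 616 and 667 CPM in spleen CD4 (log2 0.37, SE 0.11, adjusted p = 0.027), and 0.51 without the high spleen replicate 1 (adjusted p = 0.0027). With vehicle it had 829, 914 and 752 CPM in tumor CD4, against 664, 569.9 and 644 CPM in spleen CD4 (0.41, SE 0.11, adjusted p = 0.019), and 0.32 without the low spleen replicate 2 (adjusted p = 0.082). All tumor libraries lay above all spleen libraries in both. The vehicle call was also lost without tumor replicate 2 (0.30, adjusted p = 0.11) and without spleen replicate 3 (0.41, adjusted p = 0.051), and the LCL161 call without tumor replicates 1 or 3 or spleen replicates 2 or 3 (0.27 to 0.38, adjusted p 0.055 to 0.13). Without spleen CD4 LCL161 replicate 1, B2m (0.40, adjusted p = 0.032) and Tap2 (0.36, adjusted p = 0.020) also passed as higher in tumor CD4. Without spleen CD4 vehicle replicate 2 Tapbp passed as lower in tumor CD4 of vehicle mice (-0.35, adjusted p = 0.040). With both of these left out, the calls were Psmb8 (0.51), B2m (0.40) and Tap2 (0.36) with LCL161, and Psmb8 (0.32, adjusted p = 0.029) and Tapbp (-0.35, adjusted p = 0.027) with vehicle. Monocyte and macrophage markers summed to 1130 CPM in tumor and 445 CPM in spleen CD4 with LCL161 (9 of 12 higher in tumor), and to 4071 CPM in tumor and 662 CPM in spleen CD4 with vehicle (10 of 12 higher, 1 lower). The sum over B and plasma cell markers was 54.1 CPM in tumor and 1635 CPM in spleen CD4 with LCL161 (9 of 10 lower), and 138.5 CPM in tumor and 1929 CPM in spleen CD4 with vehicle (10 of 10 lower). Their part in the Psmb8 values was not tested.

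Related genes differed between the tissues as well. In vehicle CD8 cells 5 of 15 tested other class I genes were higher in tumor (H2-Q7, H2-Q10, H2-T10, H2-T22 and H2-T24) and 2 lower (Cd1d1 and Cd1d2). Of 13 interferon gamma path genes 7 were higher and 2 lower there, among them Igtp, an interferon-induced GTPase (504 CPM in tumor and 159 CPM in spleen, log2 1.66, adjusted p = 5e-05), and Gbp2 (1.36, adjusted p = 6.8e-05). Irf1 did not pass in CD8 cells (-0.22 with LCL161 and 0.34 with vehicle). All 9 class II genes were lower in tumor CD8 with vehicle and 8 of 9 with LCL161. Cell type markers moved with these comparisons: in vehicle CD8 cells 9 of 10 B and plasma cell markers were lower in tumor (40.2 to 70.1 CPM in tumor and 1316 to 1669 CPM in spleen in sum), 6 of 10 dendritic cell markers were lower, and 10 of 12 monocyte and macrophage markers were higher (3138 to 3537 CPM in tumor and 895 to 1278 CPM in spleen). T cell markers summed to 6399 to 8153 CPM in tumor and 3654 to 4295 CPM in spleen there, with 4 of 10 higher in tumor. Acinar cell markers were higher in tumor for 8 of 10, summing to 16.8 to 47.1 CPM in tumor and 2.77 to 6.03 CPM in spleen, with 4 at 0 in all spleen libraries. Their part in the values of the members was not tested.

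Fewer calls separated the sorted populations. In spleen LCL161 cells 3 of 10 genes were lower in CD8 than in CD4 (17.4% of all genes called, 9.48% lower), the median being -0.28 beside 0.00 over all genes. In tumor LCL161 cells 0 of 10 were called in edgeR (2.87% of all genes, 2 at an unadjusted p under 0.05, 1 by DESeq2), in tumor vehicle cells 1 of 10 was higher in CD8 (4.07% of all genes called, 1.7% higher), and in spleen vehicle cells 0 of 10 (11.4%, 1 at an unadjusted p under 0.05, 1 by DESeq2). CD8 and CD4 libraries did not overlap for 3 of 10 genes in spleen LCL161 (29.1% of all genes), 4 in tumor LCL161 (22.9%), 5 in tumor vehicle (25.8%) and 2 in spleen vehicle (36.3%). The spleen LCL161 calls were Tap2 (300.2, 286 and 307 CPM in CD8, against 572, 363 and 393 CPM in CD4; log2 -0.57, SE 0.13, adjusted p = 0.0057), Tap1 (-0.50, SE 0.14, adjusted p = 0.020) and H2-K1 (-0.47, SE 0.15, adjusted p = 0.039). The libraries of these 3 genes did not overlap. Without the high CD4 replicate 1 Tap2 still passed (-0.36, adjusted p = 0.020), Tap1 (-0.33, adjusted p = 0.10) and H2-K1 (-0.27, adjusted p = 0.19) did not, and Psmb10 was called as higher in CD8 (0.55, adjusted p = 0.018). Tap1 and H2-K1 were also lost without CD8 replicates 2 or 3, and H2-K1 without CD8 replicate 1. With only the 6 libraries compared none of the 3 passed. B2m (-0.36, adjusted p = 0.068) was called with RLE scaling, by DESeq2, and without CD4 replicate 2 (-0.46, adjusted p = 0.035) or 3 (-0.44, adjusted p = 0.043), and Nlrc5 (-0.54, adjusted p = 0.12) without CD8 replicate 1 (-0.90, adjusted p = 0.011). Conventional dendritic cell markers summed to 815 CPM in CD8 and 247 CPM in CD4 there (4 of 10 higher), NK cell markers to 848 CPM in CD8 and 71.1 CPM in CD4 (2 of 7 higher), and neutrophil markers to 198 CPM in CD8 and 981 CPM in CD4 (1 of 10 lower), and their part was not tested.

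In tumor vehicle cells the CD8 call was Nlrc5, with 261, 228 and 200.1 CPM in CD8 libraries, against 128, 93.1 and 131 CPM in CD4 libraries (1.96-fold, log2 0.97, SE 0.24, adjusted p = 0.025), without overlap. It was lost without CD8 replicate 1 (0.90, adjusted p = 0.12), CD8 replicate 2 (1.00, adjusted p = 0.057) or CD4 replicate 2 (0.86, adjusted p = 0.10), and without the last Psmb10 was called too (0.63, adjusted p = 0.032). In tumor LCL161 cells Nlrc5 averaged 194 ± 51.3 CPM in CD8 and 157 ± 36.1 CPM in CD4, which overlap (0.30, 95% interval -0.19 to 0.80, adjusted p = 0.60). Irf1 (283 CPM in CD8 and 158 CPM in CD4, log2 0.84, adjusted p = 0.0098) was also higher in tumor CD8 of vehicle mice. The sum over B and plasma cell markers was 57.9 CPM in CD8 and 138.5 CPM in CD4 there (4 of 10 lower), monocyte and macrophage markers to 3297 CPM in CD8 and 4071 CPM in CD4 (1 of 12 higher), and NK cell markers to 1112 CPM in CD8 and 126 CPM in CD4 (2 of 7 higher, 1 lower); their part was not tested. Psmb9 in spleen vehicle cells, at 397 ± 9.61 CPM in CD8 and 270.3 ± 54.3 CPM in CD4, stood just short of the threshold (0.55, SE 0.18, adjusted p = 0.055), and passed without CD4 replicate 1 (0.72, adjusted p = 0.030) but not without the low CD4 replicate 2 (0.44, adjusted p = 0.17). With that library and spleen CD4 LCL161 replicate 1 both left out, Psmb9 (0.44, adjusted p = 0.039) passed as higher in spleen vehicle CD8 cells and H2-K1 (-0.43, adjusted p = 0.024) and B2m (-0.39, adjusted p = 0.0091) as lower.

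The order of the 8 groups differed between genes, and neighbours in it mostly overlapped. Nlrc5 ran, in falling mean, over tumor CD8 vehicle (229.9 CPM), tumor CD8 LCL161 (194), tumor CD4 LCL161 (157), spleen CD8 vehicle (126), tumor CD4 vehicle (117), spleen CD4 LCL161 (115), spleen CD4 vehicle (114) and spleen CD8 LCL161 (79.5), with overlap at each step. B2m had its 4 tumor groups on top (7865 CPM in tumor CD4 LCL161, 6763 CPM in tumor CD4 vehicle) and spleen CD8 vehicle at the bottom (4431 CPM), and only the last step, spleen CD8 LCL161 over spleen CD8 vehicle, had no overlap. Psmb8 had the same 4 tumor groups on top, between 832 and 919 CPM, while Tapbp had both tumor CD4 groups at the bottom (848 CPM with vehicle, 837 CPM with LCL161). Of the 10 genes, H2-K1, H2-D1 and B2m were lowest in spleen CD8 vehicle and Tap2 and Nlrc5 in spleen CD8 LCL161.

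How closely the members varied together was described over the 24 libraries, which share groups and depth, so no p is given. H2-K1 and H2-D1 had the highest Pearson correlation of log2 CPM (r = 0.84, and 0.89 after group means were removed), followed by B2m with Psmb8 (0.78) and with H2-K1 (0.77). Tapbp and Psmb8 had the lowest (-0.07, but 0.44 after group means were removed). For Nlrc5 the highest correlation was 0.50, with Tap2 (0.27 after group means were removed). The spleen CD4 libraries that stand apart were kept in all these correlations. Among 10306 genes with a mean of at least 5 CPM, the 10 most like the mean z-score of the members were H2-Q5 (0.85), H2-T22 (0.85), H2-Q1 (0.85), H2-Bl (0.85), H2-Q7 (0.83), H2-T10 (0.81), Gimap3 (0.81), H2-Q4 (0.80), H2-T-ps (0.80) and H2-K2 (0.79). Of these 9 are class I genes or pseudogenes by symbol, whose sequences resemble those of the classical chains.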

How the data were processed

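RNA from sorted CD45+CD8+ and CD45+CD4+ cells was sequenced in 24 libraries. Per the submitters' processing notes, adapters were trimmed with cutadapt and STAR 2.7.3a placed the reads on GRCm38. In 1 table the authors deposited expected counts per gene; no source used here names the counting tool, annotation or strand. Of non-zero values 52.7% are not whole, and all were rounded before testing. No 2 replicates agreed within counting error (chi-square per gene 13.1 to 135 over 24 pairs), so none were merged and none left out.

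Genes were kept by filterByExpr (minimum count 10), scaled by TMM (factors 0.94 to 1.05) and fitted in edgeR 4.0.16 (R 4.3.3) with 1 robust quasi-likelihood model of 8 group means (16 residual degrees of freedom). The 17 contrasts were adjusted by Benjamini and Hochberg over 20174 genes each, with a threshold of 0.05. As alternatives served DESeq2 1.42.0, RLE scaling, unscaled totals, no filter, only the libraries compared, the replicate number as a block, and each library left out; the block with only the 6 libraries of tumor and spleen CD8 LCL161, and leaving out spleen CD4 LCL161 replicate 1 and vehicle replicate 2 together, were added after the data were seen. Same-numbered libraries met the cut-off set for pairing only in tumor minus spleen of CD8 LCL161 cells (r = 0.11, 0.12 and 0.17). Smaller positive values stood in tumor minus spleen of CD8 vehicle cells (0.027, 0.063 and 0.017). The same held for CD8 minus CD4 of spleen vehicle cells (0.041, 0.079 and 0.085). Correlations this small do not show that libraries came from the same animal. Named genes were all members, up to 4 per related list by adjusted p, the 10 most alike, and Ifng, Irf1 and Ciita (1 further gene is not reported here); a few others are named for their place in a list. The members and lists were chosen with earlier results of these data known. Annotation came from GENCODE M21 and promoters from RefSeq. Tests were tried on simulated counts first. Python 3.11.15, scipy 1.17.1, pandas 2.3.3 and matplotlib 3.10.9 made tables and figures.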

Additional observations from a re-analysis of the deposited data

How the results depend on the processing

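Of 170 values (10 genes in 17 contrasts) 15 were called. These 15 were recomputed 223 times in all, and the call was kept in 145 and lost in 78. Over all 2540 recomputations 0 called values changed direction, 30 uncalled values gained the threshold and 143 changed sign while uncalled in both. Tap1 in the mean of the 4 populations and B2m in tumor minus spleen of CD8 vehicle cells kept their calls throughout. Counts of called members changed as follows under settings that keep all libraries of a comparison or drop 2. For LCL161 minus vehicle, DESeq2 gave 1 in spleen CD4 (Tap1, 0.58, adjusted p = 0.0083) and 1 in spleen CD8 (Nlrc5), in place of 0, and 1 for the spleen CD8 minus CD4 difference of effects; their mean had 1 (Tap1) in place of 2 under RLE scaling, no scaling and no filter. Tumor minus spleen had 0 in place of 1 in CD4 LCL161 and 0 in place of 1 in CD4 vehicle with only the libraries compared, 1 in place of 2 in CD8 LCL161 under no scaling and no filter, and, in place of 5 in CD8 vehicle, 2 under no filter, 4 under RLE scaling and 6 with only the libraries compared (Psmb8 added, 0.28, adjusted p = 0.0076). CD8 minus CD4 had 0 in spleen LCL161 (in place of 3) and 0 in tumor vehicle (in place of 1) with only the libraries compared, 4 in spleen LCL161 under RLE scaling and DESeq2 (B2m added), 1 in tumor LCL161 under DESeq2 (Tap2), and 1 in spleen vehicle under DESeq2 and RLE scaling (Psmb9), in place of 0. With spleen CD4 LCL161 replicate 1 and vehicle replicate 2 both left out, the mean of the 4 populations had 1 (Tap1), tumor minus spleen 3 in CD4 LCL161 and 2 in CD4 vehicle, and CD8 minus CD4 2 in spleen LCL161 and 3 in spleen vehicle. The cause of these changes was not tested. With 1 library left out the count ranged between 0 and 1 in spleen CD4 and spleen CD8, was 0 in both tumor populations, and ranged between 1 and 3 in their mean. It ranged between 0 and 1 for the spleen CD8 minus CD4 difference and stayed 0 for the other differences. For tumor minus spleen it ranged between 1 and 2 in CD8 LCL161, 1 and 3 in CD8 vehicle, 0 and 3 in CD4 LCL161 and 0 and 1 in CD4 vehicle. For CD8 minus CD4 it ranged between 1 and 4 in spleen LCL161, 0 and 1 in both vehicle tissues, and was 0 in tumor LCL161. The 3 subunit ratios ranged between -0.15 and -0.08, -0.11 and -0.03, and -0.13 and -0.06. The replicate block over all 24 libraries changed no count (2 in the mean of the 4 populations, 2 in tumor minus spleen of CD8 LCL161, 5 in that of CD8 vehicle). The replicate block with only the 6 CD8 LCL161 libraries taken as paired gave 1 (B2m). In the other contrasts same-numbered libraries fell short of the rule for pairing. Without scaling the median of all genes in tumor minus spleen of CD4 LCL161 moved to -0.11, against 0.00 with TMM, and Tapbp was called lower there (-0.34, adjusted p = 0.035) in place of Psmb8. The lowest count of any member in a library was 943 (Nlrc5), so the spread between 3 libraries, more than counting error, limits these tests.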
